A study of Apis mellifera with 96 samples.

Results

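The subunits of respiratory complex I that the mitochondrial genome encodes were followed in whole worker honey bees (Apis mellifera). They are ND1 (KEF36_p01), ND2 (KEF36_p13), ND3 (KEF36_p07), ND4 (KEF36_p05), ND4L (KEF36_p04), ND5 (KEF36_p06) and ND6 (KEF36_p03), chosen by gene name, though with earlier results of these data known. They make up 7 of the 9935 genes in the count table, and all 7 passed the filter on low counts, as did 6753 genes in all. Untreated wild-type bees of the 6 origin colonies 107, 109, 115, 122, 127 and 137 had been spread as newly emerged adults over 3 small hives, each with a queen and a frame of honey. Bees acting as nurses or as foragers were caught at day 7 and day 26 and frozen, and RNA of the whole body was made into TagSeq libraries, which read a tag from the 3′ end of a transcript. With 92 libraries analysed, there were 22 of day 7 nurses, 22 of day 7 foragers, 24 of day 26 nurses and 24 of day 26 foragers. Whether 1 bee or several went into a library, and which hive it came from, is not in the labels, so the p-values reflect variation among libraries, part of which may be technical. In whole bodies, fewer cells of a type and less RNA per cell cannot be told apart.

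Complex I takes electrons from NADH, passes them to ubiquinone and pumps protons across the inner mitochondrial membrane, which drives ATP synthesis. Nuclear genes encode most of its subunits, while the mitochondrial genome of animals keeps the core of the membrane arm. ND1 and ND3 lie at the foot of that arm, near the ubiquinone site, ND6 and ND4L lie next to them, and ND2, ND4 and ND5 resemble ion antiporters and belong to the proton-pumping part. Animal mitochondrial genes are transcribed as long precursors that are cut into single messages, so genes on the same precursor begin from a shared transcript. Honey bee flight muscle is rich in mitochondria, and workers move from brood care inside the hive to foraging flights as they age.

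The 92 libraries held 197805 to 2300891 counts on genes (median 1288440.5). The 13 mitochondrially encoded protein genes took 1.05% to 10.2% of a library's counts (median 3.91%), and the 7 subunits took 0.179% to 2.65% (median 0.925%). Levels are given as CPM, a count relative to the total of its library on genes, scaled by TMM factors. Since tag counts depend on each transcript's 3′ end, the subunits are not ranked against each other by level. Tests are edgeR's quasi-likelihood test over all genes tested, with Benjamini-Hochberg adjusted p-values, a threshold of 0.05 and log2 fold changes with standard errors (SE).

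Before the results, 7 libraries have to be set apart. Their share of mitochondrial counts on COX3, a cytochrome oxidase gene that is not among the 7 subunits, lay at least 5.41 percentage points from the median of their own colony, while no other library was more than 2.41 points away. This rule, with a limit of 4 points, was chosen after the data were seen. They are the colony 109 forager at day 7, replicate 3, the colony 122 forager at day 7, replicate 3, the colony 127 forager at day 7, replicate 1, and the colony 127 forager at day 26, replicate 2. The others are from colony 115: the nurse at day 7, replicate 2 #2, the forager at day 26, replicate 2 #2, and the forager at day 26, replicate 1. The last one also held 1068 CPM of Apd-1, a cuticle protein gene whose median was 442 CPM at day 7 and 3.08 CPM at day 26. The colony 122 library had the lowest total of the 92, 197805 counts. Across the 92 libraries COX3 rose and fell with the subunits (r of log2 CPM with ND1 was 0.96), so fits without these libraries are not independent of the subunits' own levels. The main results are given with these libraries and without them. Why they stand apart was not tested.

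Counts on 5 of the 7 subunits were far lower in most libraries of colony 115 than in the other colonies. In the 13 libraries of colony 115 that did not stand apart, ND1, ND3, ND4, ND4L and ND5 lay at 0% to 2.88% of their median in the other colonies, ND6 lay at 25.2%, and ND2 at 111%. For the 5 subunits, every one of the 13 libraries was below every one of the 72 libraries of the other colonies that did not stand apart. COX3 moved with these subunits and chose the libraries set apart, so this separation is a description with no test. It was looked at for the 13 mitochondrial genes only. The share of all genes tested that separate the same libraries is not known here. With all 92 libraries, colonies differed for 7 of 7 subunits, against 17.8% of all genes tested. The smallest adjusted p was 1.19e-09 (ND3 and ND4L) and the largest 0.00184 (ND2). Without the 7 libraries it was again 7 of 7, against 19.7%. Without colony 115 altogether, but with the 4 other libraries kept, 3 of 7 differed, against 16.8%. With counts summed per colony, role and day, 0 of 7 differed by edgeR (2 at an unadjusted p under 0.05), against 6.35%.

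ND1, at the ubiquinone end of the membrane arm, ranged from 33.0 to 93.6 CPM in the 13 libraries of colony 115 (median 54.3) and from 659 to 6301 CPM in the 72 others (median 1882). ND3, which lies beside it, ranged from 0 to 7.84 CPM (median 2.77) against 52.9 to 691 CPM (median 217). Neither gene's ranges overlapped, and the medians were 34.7-fold and 78.2-fold apart. ND6, next to them in the arm, ranged from 208 to 967 CPM (median 484) against 529 to 8523 CPM (median 1919). Its ranges overlapped between 529 and 967 CPM. ND4L, the smallest subunit, gave 1 count among the 19166075 counts of the 13 libraries, and it ranged from 11.0 to 101 CPM (median 45.7) elsewhere.

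Of the antiporter-like subunits, ND4 ranged from 50.4 to 115 CPM in the 13 libraries (median 75.0) against 950 to 12914 CPM (median 3453). ND5 ranged from 8.79 to 33.2 CPM (median 13.0) against 337 to 2428 CPM (median 866). Both sets of ranges were apart, with medians 46.1-fold and 66.5-fold lower in colony 115. ND2, a subunit of the same kind, ranged from 1236 to 2900 CPM in colony 115 (median 1900) against 743 to 6065 CPM (median 1716), and its ranges overlapped fully on the colony 115 side. As a share of mitochondrial counts, ND2 made up a median of 10.8% in colony 115 and 2.53% to 5.31% in the other colonies.

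**Figure D1:**
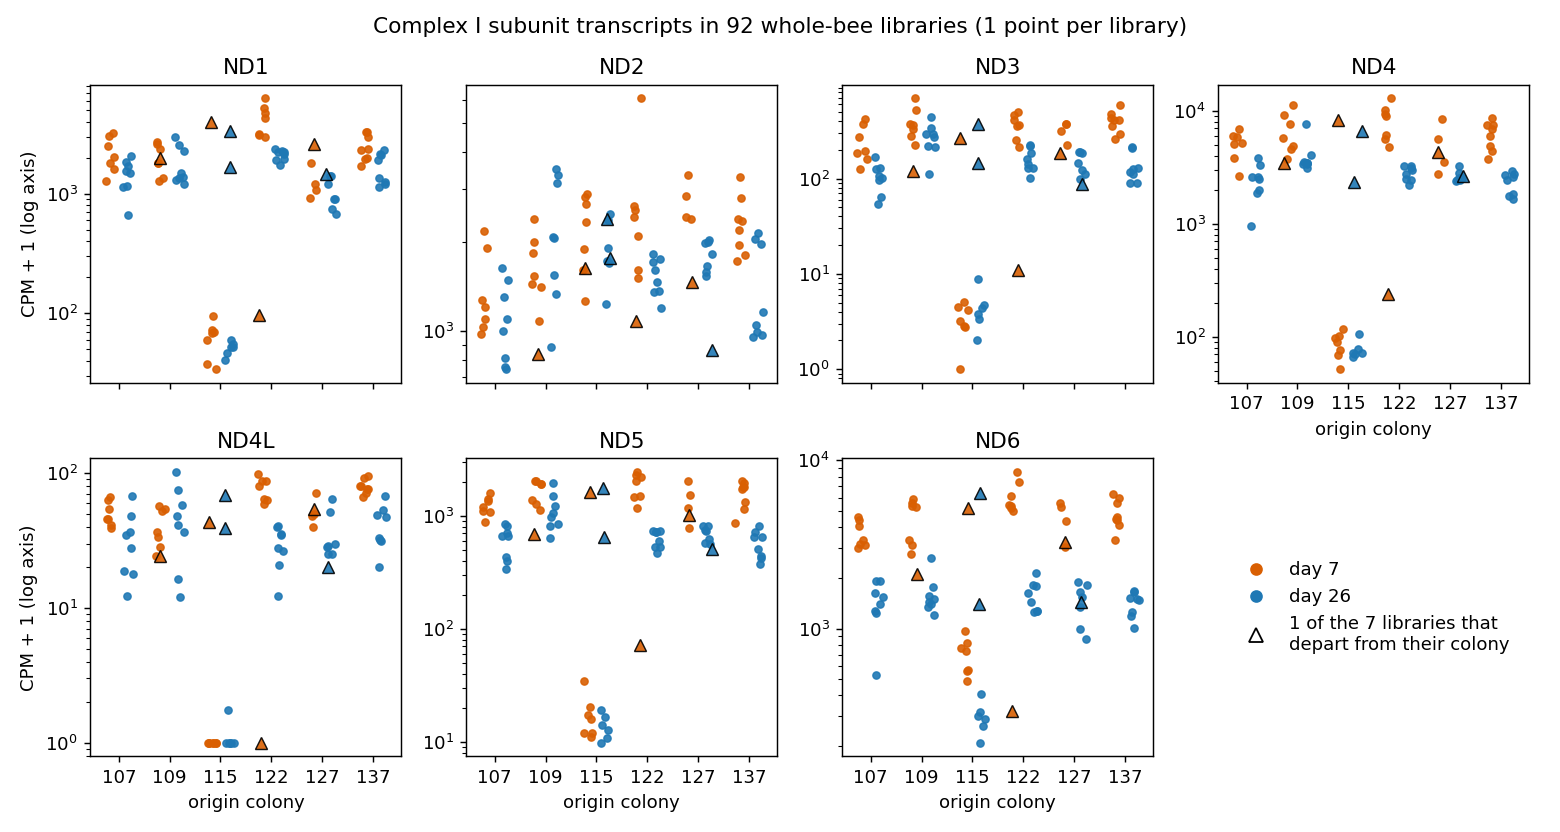
CPM + 1 on a log axis for each of the 7 subunits in each of the 92 libraries, by origin colony, with day 7 in orange and day 26 in blue; triangles are the 7 libraries that depart from their colony. In colony 115 the circles for ND1, ND3, ND4, ND4L and ND5 sit below the circles of the other colonies, and its own 3 triangles sit higher. The triangle of the colony 122 forager with the lowest total is just above the colony 115 circles for ND1 (95.5 CPM against at most 93.6 CPM). For ND4L that triangle is at 0. ND2 does not separate the colonies in this way.

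Of the 5 low subunits, ND3, ND5, ND4 and ND4L are neighbours in gene order. The strand of each gene was not used here, so neighbours in this order need not share a precursor. By the gene order of the Amel_HAv3.1 reference table, the 13 protein genes run ND2, COX1, COX2, ATP8, ATP6, COX3, ND3, ND5, ND4, ND4L, ND6, CYTB and ND1. The median in colony 115 as a share of the other colonies fell from 111% at ND2 to 63.8% at COX1 and 21.8% at COX2. From ATP8 to ND4L it lay between 0% and 2.64%, and it was 25.2% at ND6, 13.0% at CYTB and 2.88% at ND1. The 4 other genes whose ranges were apart were COX3, ATP6, ATP8 and CYTB, which encode subunits of cytochrome oxidase, ATP synthase and complex III, so the low levels were not limited to complex I. COX3 itself chose the libraries set apart, so its separation was favoured by that choice. The level is of aligned reads counted per gene. Differences in sequence between colonies and how the reads aligned were not analysed here, and their part in these levels was not tested.

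**Figure D2:**
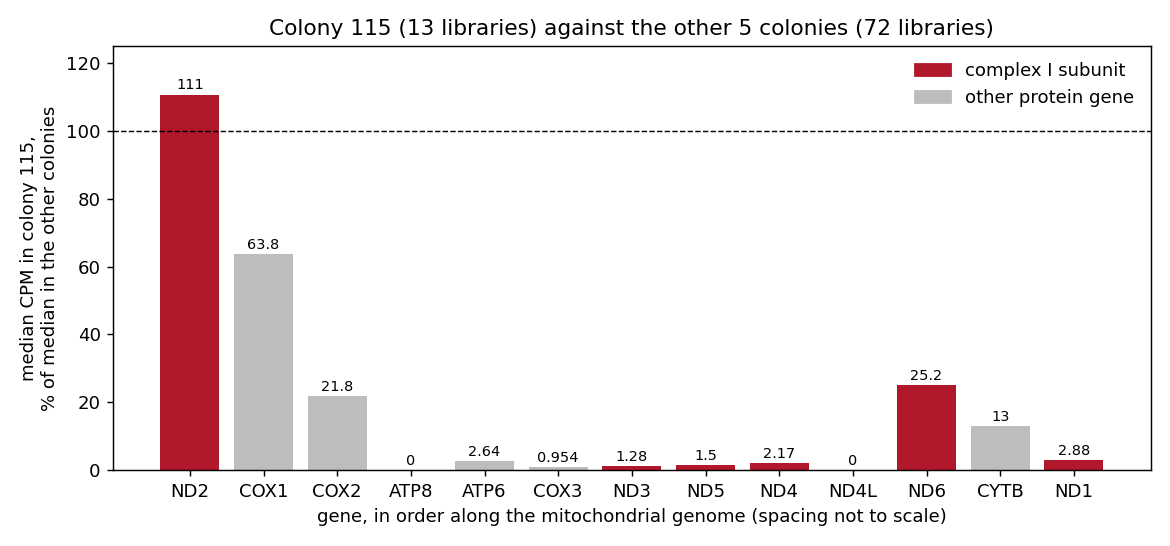
Median CPM in 13 libraries of colony 115 as a percentage of the median in 72 libraries of the other 5 colonies, for the 13 mitochondrial protein genes in genome order; red bars are complex I subunits and the dashed line is 100%. The bars fall from 111 at ND2 to 2.64 or less between ATP8 and ND4L and stand at 25.2 for ND6.

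The remaining 3 libraries of colony 115 held the subunits at levels found in other colonies. In day 7 nurses of colony 115, ND4 was at 50.4, 75.0 and 88.2 CPM in replicates 2, 3 and 1 and at 8247 CPM in replicate 2 #2. In day 26 foragers it was at 71.1 and 105 CPM in replicates 2 and 3, at 2329 CPM in replicate 2 #2 and at 6605 CPM in replicate 1. Libraries with the same colony, role and day thus lay far apart. ND3 followed the same split, at 1.83, 2.24 and 3.20 CPM against 263 CPM in the nurses. It was at 3.43 and 7.84 CPM against 146 and 374 CPM in the foragers. ND2 did not split them: it was at 1634 CPM in the high nurse library, and at 1260 to 2823 CPM in the other nurses. In the opposite direction, the colony 122 forager library of low total held ND4 at 236 CPM, ND5 at 70.3 CPM and ND6 at 322 CPM, below every other library of its colony. Its ND4L count was 0, where the other libraries of its colony ranged from 11.2 to 98.3 CPM.

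Among the other 5 colonies the differences were smaller, and their order changed from subunit to subunit. Without colony 115 and the 4 other libraries set apart, 5 of 7 subunits differed between the remaining colonies, against 18.5% of all genes tested. ND6 and ND4L did not pass (adjusted p = 0.0941 and 0.0702). For ND1, colony 122 was highest with a median of 2396 CPM and differed from colony 137 next below it (adjusted p = 0.00727; 4.14% of all genes tested passed between this pair). Colonies 137, 109 and 107, at medians of 2064, 1797 and 1714 CPM, did not differ from their neighbours in this order beyond their spread (adjusted p = 0.677 and 0.698). Colony 127 followed at 1080 CPM, below colony 107 (adjusted p = 0.00322; 9.18% passed).

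For ND5, colony 109 led with a median of 1256 CPM and differed from colony 107 at 845 CPM (adjusted p = 0.000118; 3.71% passed). Colonies 107, 137, 127 and 122, at 845, 837, 779 and 733 CPM, did not differ between neighbours (smallest adjusted p = 0.416). ND4 had the same leader, at 4103 CPM against 3329 CPM in colony 137 (adjusted p = 0.0205; 5.57% passed). Further down, colonies 107 and 122 had close medians of ND4, 3290 and 3279 CPM, yet the fit, which weights role and day groups equally, put colony 122 higher by 0.48 on the log2 scale (adjusted p = 0.0224; 3.06% passed). ND2 differed between neighbours at the bottom of its order alone, where colony 107 had a median of 1100 CPM against 1707 CPM in colony 122 (adjusted p = 0.00245). No pair of neighbours among the 5 colonies differed for ND3 or ND4L (smallest adjusted p = 0.0956 and 0.127). In ND6, colony 122 at 2150 CPM was above colony 107 at 1928 CPM (adjusted p = 0.0412). These pairs were tested without the 7 libraries set apart.

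Averaged over roles, the subunits fell from day 7 to day 26. In all 92 libraries 5 of 7 were lower at day 26, namely ND6, ND4, ND5, ND3 and ND2, against 26.1% of all genes tested in either direction and 12.4% lower. The median log2 fold change of the 7 was -0.76, beside 0.0043 over all genes tested. ND1 (-0.44 ± 0.22, adjusted p = 0.126) and ND4L did not pass. For ND4L the fit averages over groups of colony 115 with no counts, so its own fold change over 92 libraries is not given. Counts and medians over the 7 subunits include it. ND4L values in the closing section from fits that keep colony 115 have the same limit. Without colony 115 and the 4 other libraries, 7 of 7 passed, all lower, against 23.9% of all genes tested in either direction and 11.5% lower, and their median was -1.09. Without the 7 libraries alone 6 of 7 were lower, against 27.0%. The calls fell to 2 of 7, ND6 and ND2, without replicate 2 (12.3% of all genes tested passed), without the #2 libraries (17.9%) and with counts summed per colony, role and day (20.8%).

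ND6 had the largest fall of the 7 in both fits. Over 92 libraries it ranged from 322 to 8523 CPM at day 7 (median 4388) and from 208 to 6383 CPM at day 26 (median 1434), and its log2 fold change was -1.41 ± 0.16 (SE; adjusted p = 1.91e-11). In the 72 libraries left without colony 115 and the 4 others, the 33 of day 7 ranged from 2763 to 8523 CPM and the 39 of day 26 from 529 to 2613 CPM. These ranges did not overlap, and the change was -1.64 ± 0.08 (adjusted p = 5.4e-26). Over all 92 libraries the ranges of day 7 and day 26 did overlap. The share of all genes tested that separate the days in the same 72 libraries is not known here. ND4L, which did not pass over all libraries, was at 23.3 to 98.3 CPM at day 7 (median 62.1) and 11.0 to 101 CPM at day 26 (median 33.7) in the 72 libraries. It overlapped between days and changed by -0.71 ± 0.11 there (adjusted p = 1.78e-06).

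The antiporter-like subunits did not move as a block. ND4 ranged from 2658 to 12914 CPM at day 7 (median 5826) and from 950 to 7605 CPM at day 26 (median 2691) in the 72 libraries, and fell by 1.10 on the log2 scale (SE 0.09). Over 92 libraries its change was -0.91 ± 0.22 (adjusted p = 0.001). ND5 ranged from 779 to 2428 CPM (median 1497) and from 337 to 1954 CPM (median 705), and fell by 1.12 (SE 0.08), or by 0.90 over all libraries (SE 0.23; adjusted p = 0.00166). ND2 changed least of the 7 in both fits. Its day 7 range of 979 to 6065 CPM (median 1993) covered most of its day 26 range of 743 to 3518 CPM (median 1538). Its log2 fold change was -0.39 ± 0.10 in the 72 libraries and -0.31 ± 0.09 in all 92 (adjusted p = 0.00205 and 0.00581).

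At the ubiquinone end, ND3 ranged from 124 to 691 CPM at day 7 (median 360) and from 52.9 to 447 CPM at day 26 (median 130), and ND1 from 916 to 6301 CPM (median 2356) and from 659 to 2980 CPM (median 1500), in the same 72 libraries. Both overlapped between days. ND3 fell by 1.09 (SE 0.11; adjusted p = 7.51e-12) and ND1 by 0.52 (SE 0.09; adjusted p = 2.78e-06). ND3 also passed over all 92 libraries (-0.76 ± 0.23, adjusted p = 0.00931).

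**Figure D3:**
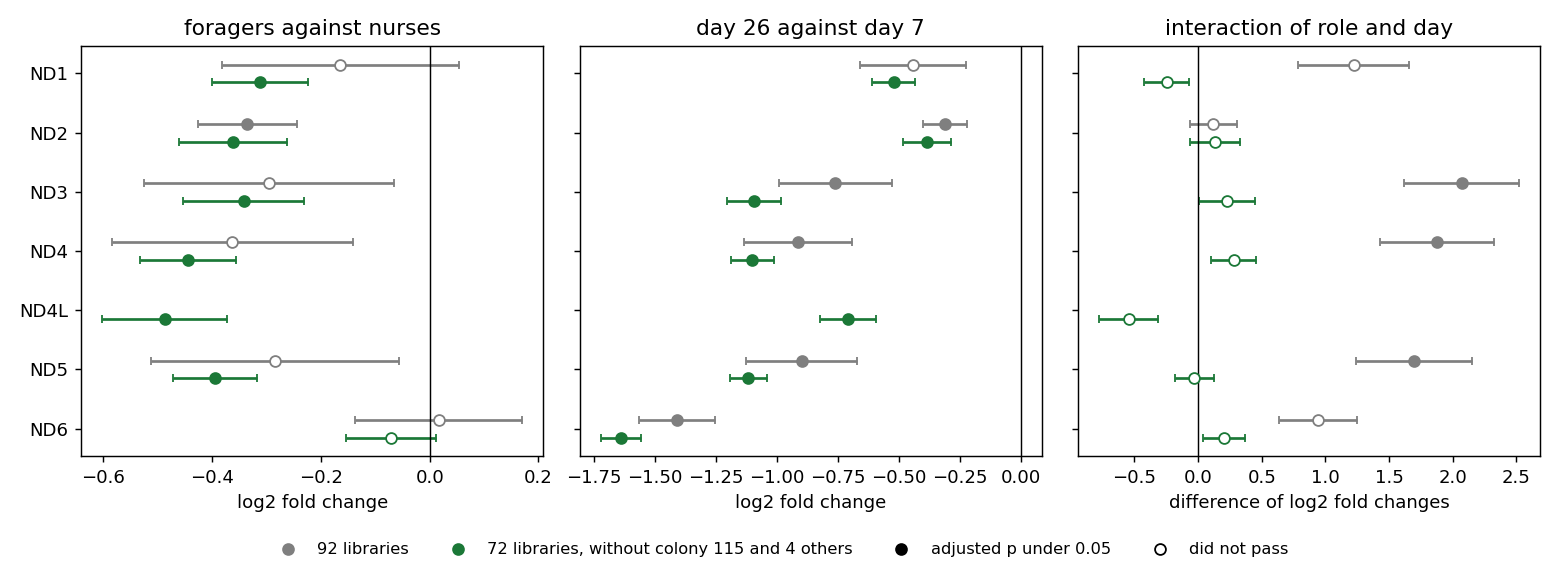
Log2 fold change with SE of each subunit for foragers against nurses, day 26 against day 7, and the interaction of role and day, over 92 libraries (grey) and over 72 libraries without colony 115 and 4 others (green); filled points passed an adjusted p of 0.05, and ND4L is left out over 92 libraries because colony 115 held groups with no counts. All 7 green points for the day contrast lie between -1.64 and -0.39, and the grey interaction points near 2 have green partners near 0.

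Of the 13 mitochondrial genes 12 were lower at day 26 in the 72 libraries, against 11.5% of all genes tested. The make-up within the mitochondrial counts shows which subunits fell less. In the 72 libraries, the 13 genes took a median of 7.92% of counts at day 7 and 3.39% at day 26. Of those mitochondrial counts, ND2 made up a median of 2.30% at day 7 (1.37% to 5.50%) and 4.50% at day 26 (2.53% to 6.92%). ND1 went from 2.86% (1.16% to 5.98%) to 4.42% (2.52% to 6.97%). ND6 went the other way, from 5.92% (3.42% to 8.12%) to 4.22% (2.58% to 5.75%). ND3, ND4 and ND5 kept close medians, at 0.418% and 0.413%, 7.51% and 7.89%, and 1.92% and 1.99%. All of these ranges overlapped between days, and the shares were not tested, because the shares within a library depend on each other.

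**Figure D4:**
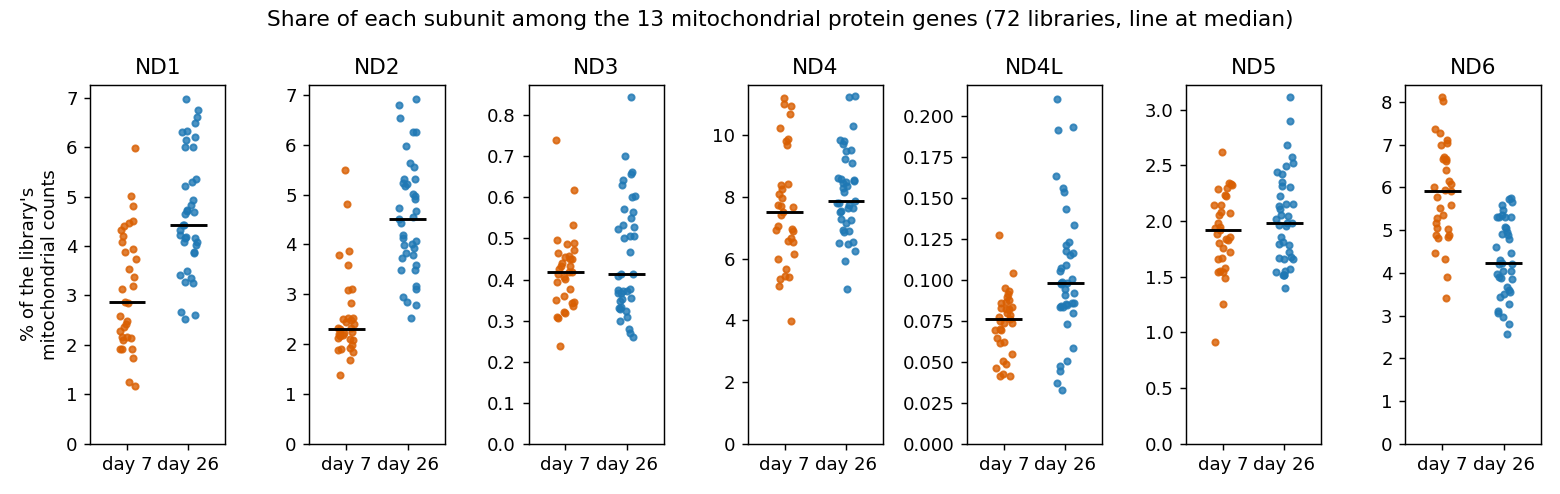
Percentage of the mitochondrial counts of a library that each subunit takes, at day 7 and day 26, in 72 libraries without colony 115 and 4 others (33 and 39; the line is the median). ND2 and ND1 sit higher at day 26, with medians of 4.50% and 4.42%, ND6 sits lower at 4.22%, and the other subunits overlap almost fully.

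The day fall was seen in each of the 5 colonies for ND6, at -1.35 ± 0.18 in colony 107, -1.50 ± 0.18 in colony 109, -1.92 ± 0.18 in colony 122, -1.63 ± 0.21 in colony 127 and -1.80 ± 0.18 in colony 137. ND4 and ND5 also passed in all 5 colonies, at -0.77 to -1.49 and -0.62 to -1.55. ND3 passed in colonies 107, 122, 127 and 137. In colony order, 3.29%, 6.72%, 6.04%, 2.34% and 6.26% of all genes tested passed. Over all 92 libraries 1 subunit passed in each of colonies 107, 109, 122 and 127 and 2 in colony 137, against 2.18%, 7.11%, 5.02%, 1.97% and 5.85%. Colony 109 stood at the small end for ND1 (-0.18 ± 0.19), ND3 (-0.52 ± 0.24), ND4L (0.12 ± 0.25) and ND2 (0.37 ± 0.21), none of which passed there. Colony 122 had the lowest value of the 5 for each subunit but ND3, for which colony 137 did (-1.57 ± 0.24). A test of colony by day, however, called 0 of the 7 subunits in these libraries (edgeR; smallest adjusted p = 0.114, ND5; 4 at an unadjusted p under 0.05; no other tool run), where 0.368% of all genes tested passed, so the colonies are not shown to differ in their day change.

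Within colony 115 the fits give another picture. Over its 16 libraries, 0 of 7 subunits passed between days by edgeR, 0 at an unadjusted p under 0.05, where 0.963% of all genes tested passed, and ND6 had a log2 fold change of -0.57 ± 0.37 (adjusted p = 0.563). In its 13 libraries that did not stand apart, ND6 was at 484 to 967 CPM at day 7 (n = 7, median 732) and 208 to 404 CPM at day 26 (n = 6, median 294), with no overlap, and it passed (adjusted p = 0.000127), where 1.40% of all genes tested did. The share of all genes tested whose ranges are apart between days in these 13 libraries is not known here. ND4 was at 50.4 to 115 CPM (median 88.2) and 65.2 to 105 CPM (median 70.5). The ranges of ND4 overlapped, and so did those of ND1, at 33.0 to 93.6 CPM (median 67.1) and 39.2 to 58.4 CPM (median 51.0). Without the 7 libraries, colony 115 included, the colony by day test passed for ND4 and ND5 (adjusted p = 0.0202 for both), against 0.442% of all genes tested. With all libraries it called 0 (smallest adjusted p = 0.157, ND2; 1 at an unadjusted p under 0.05), where 0.0444% passed.

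**Figure D5:**
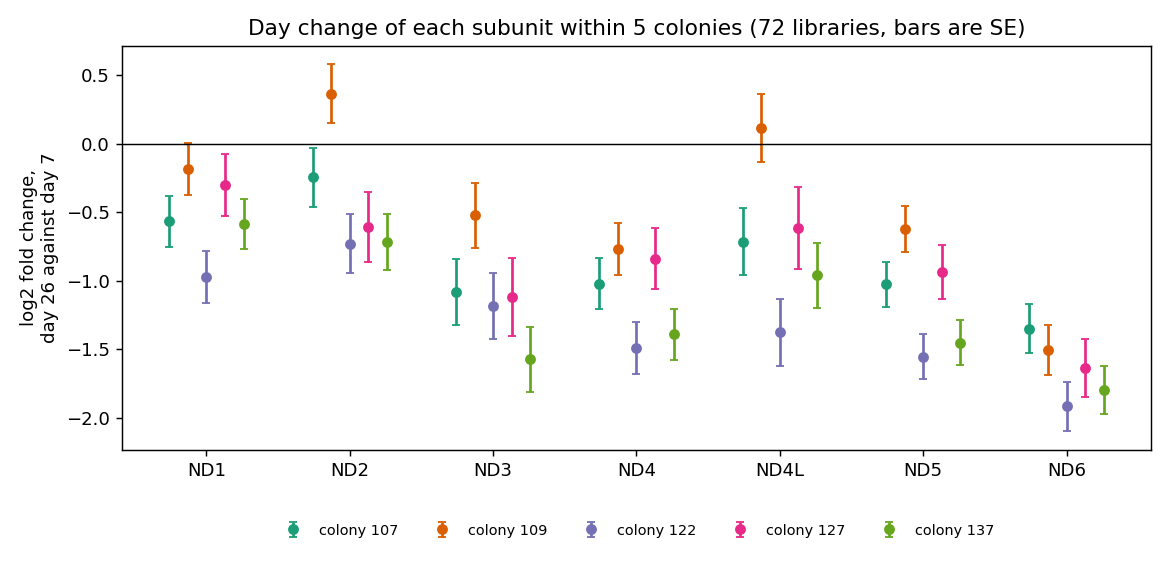
Log2 fold change of day 26 against day 7 with SE for each subunit within colonies 107, 109, 122, 127 and 137, from the fit of 72 libraries. All 5 colonies lie below 0 for ND1, ND3, ND4, ND5 and ND6, and colony 109 lies above 0 for ND2 (0.37) and ND4L (0.12).

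Averaged over both days, few subunits differed between roles over all libraries. Over 92 libraries only ND2 passed, against 30.1% of all genes tested in either direction and 14.8% lower. It ranged from 808 to 6065 CPM in nurses (median 1895) and from 743 to 2900 CPM in foragers (median 1535), overlapping, with a log2 fold change of -0.34 ± 0.09 (adjusted p = 0.00252). The 5 others with a usable fit had changes of -0.36 (ND4) to 0.02 (ND6). Without the 7 libraries 4 of 7 passed, all lower (28.3%). Without colony 115 and the 4 other libraries, 6 of 7 were lower in foragers, against 27.4% of all genes tested in either direction and 13.8% lower. ND6 did not pass there (-0.07 ± 0.08, adjusted p = 0.569).

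In those 72 libraries, ND4L had the largest role change of the 7, at 19.7 to 101 CPM in nurses (median 50.9) and 11.0 to 94.2 CPM in foragers (median 35.4), and -0.49 ± 0.11 on the log2 scale (adjusted p = 0.000754). ND4 was at 1772 to 12914 CPM (median 3983) and 950 to 9348 CPM (median 3168), with -0.44 ± 0.09 (adjusted p = 5.73e-05). Both overlapped between roles over nearly the whole range. ND5 (-0.39 ± 0.08), ND2 (-0.36 ± 0.10), ND3 (-0.34 ± 0.11) and ND1 (-0.31 ± 0.09) were close to each other. Split by day, 4 of 7 passed at day 7 (17.2% of all genes tested) and 3 of 7 at day 26 (16.9%), all lower. Over all 92 libraries 5 of 7 passed at day 7, all lower (20.2%), with a median log2 fold change of the 7 of -1.13 beside 0.017 over all genes tested. At day 26 0 of 7 passed by edgeR (17.7%; 3 at an unadjusted p under 0.05), and the values had the opposite sign for 6 of 7, with a median of 0.49 and a highest value of 0.74 (ND3, adjusted p = 0.0869). The average over days therefore joins values of opposite sign in that fit. Within a single colony, in the 72 libraries, the role change of ND1 and ND4 passed in colony 107 (-0.64 ± 0.19 and -0.67 ± 0.19, adjusted p = 0.0143 and 0.0099), and no other subunit passed in any of the 5. In colony order, 15.4%, 5.05%, 0.0589%, 0.0737% and 6.54% of all genes tested passed. Over all 92 libraries 0 of 7 subunits passed in colony 107 by edgeR, where 994 of 6753 genes tested did. The smallest adjusted p among the subunits was 0.158 there, with 1 at an unadjusted p under 0.05. Colony by role in the 72 libraries called 0 subunits and 0% of all genes tested (edgeR; smallest adjusted p among the subunits 0.906; 0 at an unadjusted p under 0.05), and 0 and 0% over all 92 libraries.

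Over all 92 libraries the day change differed between roles for 3 of 7 subunits. The interaction was positive for ND3 (2.07 ± 0.45, adjusted p = 0.00915), ND4 (1.88 ± 0.45, adjusted p = 0.0214) and ND5 (1.70 ± 0.46, adjusted p = 0.0491), against 0.829% of all genes tested in either direction and 0.489% higher. In nurses 7 of 7 subunits were lower at day 26 (13.4% of all genes tested passed), and in foragers ND6 alone was (18.9% passed). In this fit the day change was below 0 for 7 of 7 subunits in nurses (median log2 fold change -1.75). In foragers it was above 0 for 4 and below 0 for 3 (median 0.027). Medians over libraries, which do not weight colonies equally, can differ from the fit. For ND4 they were 6497 CPM in day 7 nurses and 2681 CPM in day 26 nurses, and 4092 and 2520 CPM in foragers. All 4 ranges overlapped, with lows of 50.4 to 71.1 CPM and highs of 6605 to 12914 CPM.

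The interaction was not called without colony 115, nor without a single library of it. Other reductions of the data also gave 0 of 7 by edgeR. These were leaving out replicate 1, 2 or 3, leaving out the #2 libraries, and summing counts per colony, role and day. There 0.165% to 0.282% of all genes tested passed, and 0 to 5 subunits had an unadjusted p under 0.05. Without the colony 115 nurse at day 7, replicate 2 #2, 0 of 7 subunits passed by edgeR, against 0.649% of all genes tested, with 4 at an unadjusted p under 0.05. Without colony 115 it was 0, against 0.711%, with 0 at that level. Without the 7 libraries 0 of 7 passed (1 unadjusted; 0.987% of all genes tested), and ND5 turned to -0.19 ± 0.15. Without colony 115 and the 4 others 0 of 7 passed (1 unadjusted; 0.884%), with ND3 at 0.23 ± 0.22, ND4 at 0.28 ± 0.18 and ND5 at -0.03 ± 0.15. In those 72 libraries 6 of 7 subunits were lower at day 26 in nurses and 6 of 7 in foragers (11.9% and 17.7% of all genes tested passed). ND4L missed the threshold in nurses (-0.44 ± 0.15, adjusted p = 0.055) and ND2 in foragers (-0.32 ± 0.14, adjusted p = 0.115). DESeq2 was run over all 92 libraries, where it called 4 of 7, against 1.14% of all genes tested. In the 72 libraries ND4 fell by 1.24 in nurses (SE 0.12) and by 0.96 in foragers (SE 0.13).

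The subunits were read beside the 6 other mitochondrial protein genes. In the 72 libraries 5 of those 6 were lower at day 26, against 11.5% of all genes tested. COX2 was at -1.60 ± 0.07, CYTB at -1.61 ± 0.07 and COX1 at -1.05 ± 0.07, and ATP8 did not pass (0.03 ± 0.19, adjusted p = 0.931). For role 4 of 6 were lower in foragers there, against 27.4% of all genes tested, and over all 92 libraries 0 of 6 passed by edgeR, against 30.1% (1 at an unadjusted p under 0.05). Nuclear genes of the respiratory chain went the same way with day. Of 8 that the table names, 6 were lower at day 26 over 92 libraries and none was higher, against 26.1% of all genes tested, and Uqcr11, of complex III, had the smallest adjusted p (-1.16 ± 0.08, adjusted p = 7.07e-20). The nuclear complex I genes among them were Ndufs1 (-0.62 ± 0.12) and Ndufb2 (-0.23 ± 0.07), which fell, and Ndufs5 (-0.16 ± 0.11), which did not pass. The table names only a few nuclear subunits, so these are not complex I as a whole. Sod2, the mitochondrial superoxide dismutase, was lower too (-0.74 ± 0.11, adjusted p = 4.24e-08). For role 2 of the 8 passed, a share below the 30.1% of all genes tested, with cytochrome c (CytC) higher in foragers (0.33 ± 0.09) and Ndufb2 lower (-0.18 ± 0.07).

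Markers of tissues moved with the same contrasts, in which 30.1% of all genes tested passed for role and 26.1% for day. Of 7 troponin genes of muscle, 5 were lower and 2 higher at day 26, while 2 were lower and 1 higher in foragers, and their summed level was 1878 to 3417 CPM at day 7 (median 2648) and 1295 to 3863 CPM at day 26 (median 2185). Of 6 nerve and eye genes, 4 were higher at day 26 and 6 of 6 were higher in foragers, with sums of 53.2 to 312 CPM in nurses (median 204) and 208 to 418 CPM in foragers (median 265). The 3 royal jelly protein genes of the nurse head gland were all lower in foragers, with sums of 1353 to 242242 CPM in nurses (median 105798) and 321 to 103112 CPM in foragers (median 4715). Both fat body genes and both venom genes were lower in foragers, with summed medians of 2142 and 227 CPM for fat body (106.6 to 14577 and 93.0 to 4685 CPM) and of 5654 and 766 CPM for venom (99.8 to 22738 and 81.6 to 13302 CPM). The venom genes were also both lower at day 26, with summed medians of 8485 and 742 CPM (299.6 to 22738 and 81.6 to 7914 CPM). Of the fat body genes, Hex70a was also lower at day 26. Reads not aligned made up a median of 65.9% of a library at day 7 and 68.9% at day 26, and 65.3% in nurses and 69.6% in foragers. The part of tissue make-up and of alignment in the subunit changes was not tested.

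Over all libraries 6 of the 7 subunits varied together and ND2 did not vary with them, a split that was not seen without colony 115 and the 4 others. Over 92 libraries, Pearson's r of log2 CPM between pairs of the other 6 ran from 0.80 (ND4L and ND6) to 0.99 (ND4 and ND5), while ND2 had 0.01 to 0.24 with them. These are descriptions over libraries that share depth, scaling and the colony 115 split. In the 72 libraries r between pairs of the other 6 ran from 0.56 (ND1 and ND3) to 0.95 (ND4 and ND5), and ND2 had 0.42 (ND1) to 0.77 (ND3), so these ranges overlapped. After the mean of each group of colony, role and day was taken off, ND2 was closest to ND3 (0.79) and ND4L (0.67), and ND4 to ND5 (0.82), while ND6 and ND4L had 0.16.

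The genes outside the 7 whose levels were most like theirs were other mitochondrial genes, except for ND2. Over 92 libraries the closest was ATP6 for ND3 (r = 0.98), ND4 (0.99), ND4L (0.96) and ND5 (0.98), COX3 for ND1 (0.96), and CYTB for ND6 (0.97), which is the next gene after it. For ND2 the closest were LOC408589 (0.72), LOC725712 (0.69) and LOC724719 (0.69). With group means taken off in the 72 libraries, ND2 was closest to COX1 (0.68), the next gene after it, and ND6 again to CYTB (0.84). These are the highest values among 6753 genes.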

How the data were processed

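The deposited values are raw counts of reads per gene, made by the authors from TagSeq libraries prepared together, per the labels. HISAT2, SAMtools, FastQC and DESeq2 are named in the submitters' processing notes, with no versions. How reads were counted, with or without strand, and against which build and annotation, is not given in the sources used here. For that reason coordinates are left out, and overlapping neighbours on the mitochondrial genome may share reads. Of 96 labelled samples, 93 have a column. The colony 107 forager at day 7, replicate 1 (81736 counts), was left out. The 5 entries for reads assigned to no gene stayed out of totals and tests. A median of 12.5% of reads fell on genes. Subunits were matched by locus tag to the Amel_HAv3.1 reference table, which gave names and gene order only.

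In R 4.3.3, genes were kept by filterByExpr at a minimum count of 10, scaled by TMM and fitted with edgeR 4.0.16 (glmQLFit with legacy=FALSE and robust=TRUE) on 24 group means, with 68 residual degrees of freedom. Contrasts averaged colonies equally. Adjusted p-values run over all genes tested. CPM for correlations used a prior count of 2. Counting error alone would allow up to 3 counts where a library shows 0. Alternatives, DESeq2 1.42.0 among them (for colonies a likelihood ratio test without interactions), are in the closing section. The scripts were tested on simulated data. The members, gene lists and rule for named genes were chosen with earlier results of these data known. Lists were matched by gene symbol alone, since the reference table holds no product names, so nuclear subunits known there only by a locus number are missing from them. The rule named all 7 subunits, up to 4 other mitochondrial genes, and up to 4 list genes with the smallest adjusted p. Nuclear complex I genes were given apart. Apd-1 and the individual libraries were named after their values were seen.

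Libraries marked #2 were treated as separate samples. In 3 groups a pair of libraries differed by a mean chi-square per gene under 4, and whether each pair is 2 samples could not be told from the counts. Replicate numbers were not treated as pairing libraries. Deviations of same-numbered libraries had a mean correlation of -0.0021 to 0.0050, which cannot exclude pairing in part of the groups. The share of these correlations over 0.1 was 17.7% for replicate 1, 8.75% for replicate 2 and 10.1% for replicate 3.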

Additional observations from a re-analysis of the deposited data

Results flagged for a closer look

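A library lay far from the other 3 of its group in 10 of 147 combinations of subunit and group, by the gap between the extreme library and its neighbour over the range (Dixon's critical value for 4 libraries, 0.829). Chance alone gives such a gap in about 1 group in 20. Of these 10, 7 fell in libraries that depart from their colony, and the 10 involve 4 libraries.

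The colony 115 nurse at day 7, replicate 2 #2, accounts for 6 of them. It held ND1 at 3965 CPM where the next library of its group had 67.1 CPM, ND3 at 262.8 CPM against 3.20 CPM, ND4 at 8247 CPM against 88.2 CPM and ND4L at 42.1 CPM against 0 CPM. It held ND5 at 1601 CPM against 11.0 CPM and ND6 at 5202 CPM against 767 CPM. In the colony 122 forager at day 7, replicate 3, ND6 was at 322 CPM, far below the next library at 5028 CPM. The colony 109 nurse at day 26, replicate 2, had ND4 at 7605 CPM against 4103 CPM and ND6 at 2613 CPM against 1568 CPM. In the colony 115 nurse at day 26, replicate 2, ND4L was at 0.746 CPM, which is 1 count, where the other libraries of the group had 0.

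The day change differed between nurses and foragers over all 92 libraries for ND4 (interaction 1.88, adjusted p = 0.0214), ND5 (1.70, adjusted p = 0.0491) and ND3 (2.07, adjusted p = 0.00915), by edgeR's quasi-likelihood test. All 3 lost the call without the colony 115 nurse library named above, and also without each replicate number in turn.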

How the results depend on the processing

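Under DESeq2 size factors, totals without mitochondrial genes, no filter on low counts, the DESeq2 test and inclusion of the library of few counts, no direction changed, and the numbers of subunits called stayed at 1 for role, 5 for day and 7 for colony, with 2 to 4 for the interaction. Of all genes tested, 21.9% to 30.1% passed there for role, 18.6% to 26.1% for day, 11.7% to 20% for colony and 0.488% to 1.14% for the interaction. Leaving out each replicate number in turn gave 0 to 1 for role (20.6% to 23.7% of all genes tested) and 2 to 5 for day (12.3% to 20.1%). It gave 0 for the interaction (edgeR, 4 to 5 at an unadjusted p under 0.05, 0.165% to 0.282% of all genes tested) and 6 to 7 for colony (4.21% to 12.6%). Over all genes it gave 822 calls for day without replicate 2 against 1764, 11 to 19 for the interaction against 56, and 281 (without replicate 2) and 377 (without replicate 3) for colony against 1203. Without the #2 libraries the calls were 2 for day and 0 for the interaction (2 unadjusted), with 15 and 442 genes in all for the interaction and colony. Without colony 115 they were 5 for role (29.2% of all genes tested), 0 for the interaction (0.711%) and 3 for colony (16.8%). Without colony 137 they were 3 for day (22.1%). Leaving out a colony gave 20 to 48 genes for the interaction, and 596 (colony 107) and 674 (colony 137) for colony. With counts summed per colony, role and day they were 2 for day, 0 for the interaction (0 unadjusted) and 0 for colony (2 unadjusted), with 14 and 511 genes in all for the interaction and colony. Alternatives chosen after seeing the data gave 4 for role and 0 for the interaction without the 7 libraries, 6 and 0 without colony 115 and the 4 others, and 0 for the interaction without the colony 115 nurse at day 7, replicate 2 #2. Leaving out any other of the 7 libraries, or 1 of each near-identical pair, gave 2 to 3 for the interaction (0.709% to 0.974% of all genes tested).

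For role, ND6 (0.02 over all libraries) became -0.14 without replicate 1, -0.15 without colony 115, -0.026 without the 7 libraries, -0.071 without colony 115 and the 4 others, and -0.12 without the colony 115 forager at day 26, replicate 1. Without replicate 2, ND1 became 0.29, ND4L 0.18, ND4 0.12 and ND5 0.21 for role, and ND4L 0.033 for day. Without the #2 libraries, ND1 became 0.20, ND4L 0.036, ND5 0.095 and ND3 0.011 for role, and ND4L 0.12 for day. Without the colony 115 nurse at day 7, replicate 2 #2, ND1 became 0.21, ND4L 0.12, ND4 0.044, ND5 0.15 and ND3 0.094 for role, and ND4L 0.22 for day. The interaction of ND2 became -0.075 without replicate 3. Over the replicates left out in turn, the role changes ran from -0.43 to 0.29 (ND1), -0.14 to 0.13 (ND6), -0.61 to 0.18 (ND4L), -0.55 to 0.12 (ND4) and -0.47 to 0.21 (ND5), the day change of ND4L from -0.48 to 0.033, and the interaction of ND2 from -0.075 to 0.36. The interactions of ND1 and ND4L became -0.23 and -0.51 without colony 115. They became -0.33 and -0.68 without the 7 libraries, with ND5 at -0.19, and -0.25 and -0.55 without colony 115 and the 4 others, with ND5 at -0.032. ND4L values from fits that keep colony 115 average over groups with no counts, so their signs are not read as results. The cause of these changes was not tested.

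As a share of all reads, the 7 subunits made up 0.191% at day 7 and 0.0991% at day 26 on average, and the 13 genes 0.911% and 0.411%, against 1.42%, 0.798%, 6.69% and 3.32% of counts on genes. The replicate block, where the numbers are not known to pair libraries, gave 1, 5, 2 and 7 calls for role, day, interaction and colony. Of all genes tested, 29.7%, 25.9%, 0.77% and 16.7% passed there. ND5 missed the threshold for the interaction in that fit (adjusted p = 0.0575). Depth limits ND4L and ND3 in colony 115, whose counts over 13 libraries were 1 and 53.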
